A study of Arabidopsis thaliana with 20 samples.

Results

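The abscisic acid receptors described here are 9 genes of the Arabidopsis thaliana PYR/PYL family, taken by gene code from a table of 32833 codes: PYR1 (AT4G17870), PYL1 (AT5G46790), PYL2 (AT2G26040), PYL4 (AT2G38310), PYL5 (AT5G05440), PYL6 (AT2G40330), PYL7 (AT4G01026), PYL8 (AT5G53160) and PYL9 (AT1G01360). All 9 passed the filter on low counts, which left 20862 genes for testing. The libraries are whole-root RNA of grafted plants in which shoot and root were each either Col-0 wild type (WT) or cpd, a mutant in CPD, which encodes an enzyme of brassinosteroid synthesis. A group's name gives the shoot and then the root, so that WT/cpd is a WT shoot on a cpd root and cpd/WT the reverse; with WT/WT and cpd/cpd there were 4 groups, with 5 libraries in each and 3 roots pooled in every library. The sources used here give neither the allele of cpd nor the age of the plants. The cpd/cpd titles lack the word Grafted that the others carry, although the design text counts that group among the grafts; a difference in grafting and a difference in genotype cannot be told apart in comparisons that use it. Nothing says that the pools came from separate plates or days, so the p-values rest on the spread among pools of roots, which may be technical.

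Abscisic acid (ABA) is the hormone of drought and dormancy, and it also slows root growth and lateral root emergence. A PYR/PYL receptor that has bound ABA closes over the hormone and docks onto a clade A protein phosphatase 2C (PP2C), such as ABI1 or HAB1, and blocks it. SnRK2 kinases are then no longer held inactive by the phosphatase, and they phosphorylate the ABF transcription factors that switch on ABA response genes. PYR1, PYL1 and PYL2 are dimers without hormone, whereas PYL4 to PYL6 and PYL7 to PYL9 are largely monomers, and PYL8 is known for its role in root growth.

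Library totals ran from 13417029 counts (WT/cpd replicate 1) to 32337043 (cpd/cpd replicate 1). CPD, the mutated gene, averaged 45.5 ± 4.93 CPM (SD, n = 5; counts per 1 M after scaling of the library) on WT roots under a WT shoot and 40.9 ± 4.54 CPM under a cpd shoot. On cpd roots it averaged 4.0 ± 0.751 and 2.84 ± 0.63 CPM, so its level followed the labelled root genotype. Markers of stele, endodermis and cortex, epidermis and root cap were detected in every group, with 0 markers at 0. Fewer cells of a type and less RNA per cell cannot be told apart in these whole roots.

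Receptor levels in WT/WT roots spanned a wide range. Per kilobase of exon, the only scale used here between genes, they held most PYL4 (102.9 CPM per kilobase) and PYR1 (93.1), followed by PYL8 (45.98), PYL1 (33.99), PYL5 (28.66), PYL9 (22.45), PYL6 (13.83), PYL7 (9.5) and PYL2 (0.665). PYL2 rested on 95 counts over the 5 WT/WT libraries and PYR1 on 13145. PYL3, PYL10, PYL11 and PYL13, members of the same family of 14 genes, did not pass the filter. Their counts summed over a group reached at most 36 for PYL3, 14 for PYL10 and 31 for PYL11, and PYL13 had 1 count in all 20 libraries.

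**Figure D1:**
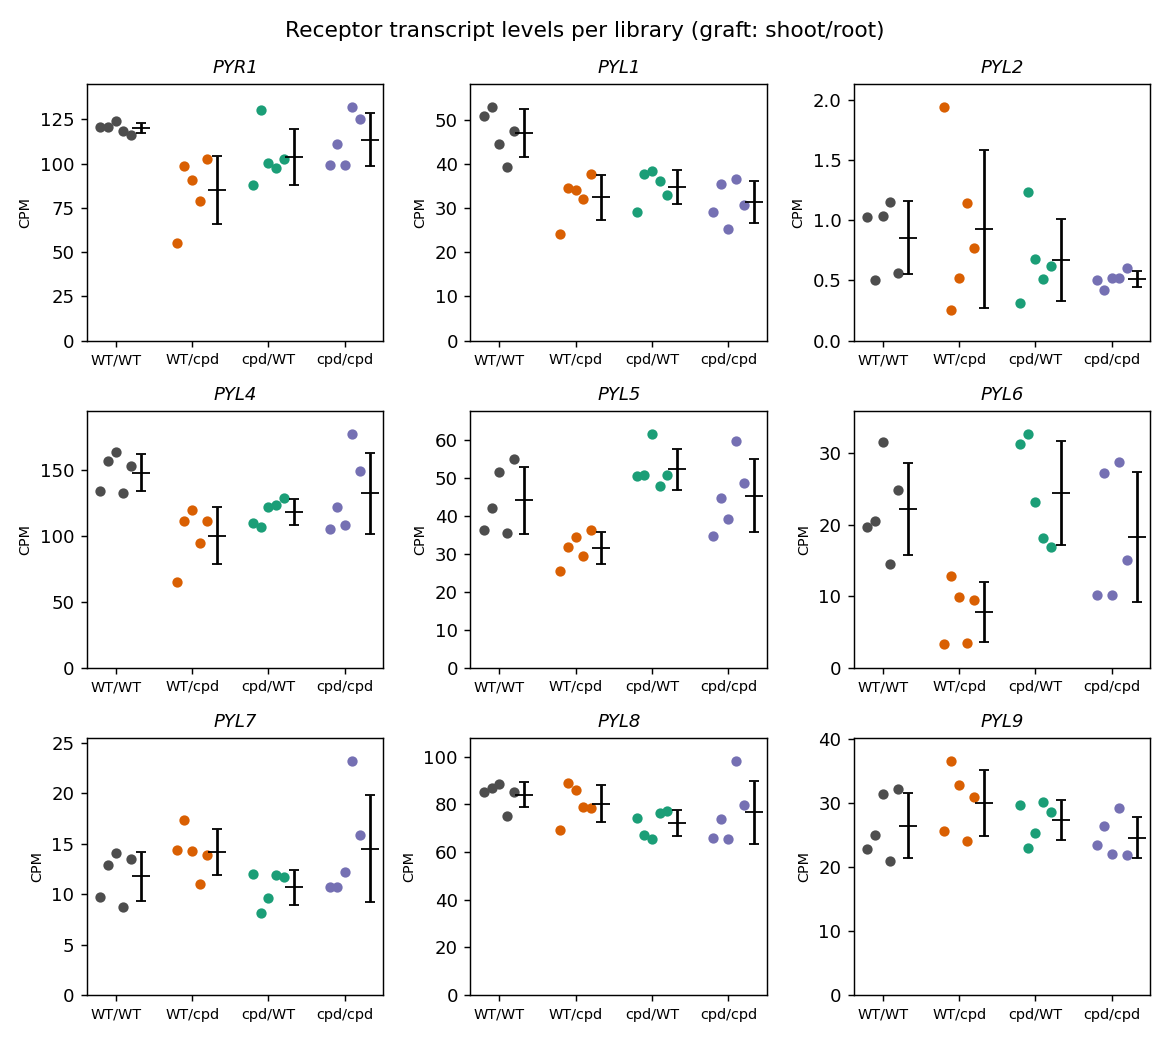
Transcript level of each receptor gene in every library, in CPM on a linear axis from 0, for the 4 graft groups (shoot/root); points are single libraries and the black mark beside them is the mean with SD (n = 5). The WT/cpd points of PYL6 lie between 3.35 and 12.8 CPM, all under the lowest WT/WT point of 14.5 CPM.

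A cpd root under a WT shoot had lower levels of 5 of the 9 receptors than a WT root under a WT shoot, namely PYL6, PYL4, PYL1, PYR1 and PYL5, and higher levels of 0. In this comparison 9.45% of all genes tested were called and 3.26% were called lower, where a call is an adjusted p under 0.05 (edgeR quasi-likelihood, Benjamini-Hochberg over all genes tested). The median log2 fold change over the 9 receptors was -0.48, against -0.01 over all genes. Over the same comparison the summed level of 8 shoot (photosynthetic) markers ran from 442.2 to 932.8 CPM in WT/WT and from 702.9 to 1484 CPM in WT/cpd, with 4 of the 8 called higher. The endodermis and cortex markers summed to 133.6 to 211.6 CPM in WT/WT and 93.6 to 140.6 CPM in WT/cpd, with 1 of 4, the Casparian strip gene CASP1, called lower. Of the 4 root cap markers 1 was called higher. The part of these markers in the receptor result was not tested.

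PYL6 changed most. It is encoded on chromosome 2 (TAIR10.1, 16844588 to 16846194, minus strand) by a single coding exon, as are PYR1 and PYL1 to PYL5 among the members. Its levels were 19.6, 20.5, 31.6, 14.5 and 24.9 CPM in the WT/WT libraries and 3.35, 12.8, 9.91, 3.51 and 9.46 CPM in the WT/cpd libraries. The groups did not overlap, and within WT/cpd replicates 1 and 4 were far under the other 3. The log2 fold change was -1.49 ± 0.37 (SE), with an edgeR quasi-likelihood adjusted p of 0.017, and it kept its call in 29 of 29 alternative settings, in which the adjusted p reached 0.049 and the log2 fold change lay between -1.84 and -1.29.

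PYL1, a dimeric receptor and the closest relative of PYR1 (75.2% identical coding bases), was lower too. It stood at 50.9, 52.9, 44.5, 39.4 and 47.5 CPM in WT/WT and at 24.2, 34.5, 34.0, 32.02 and 37.8 CPM in WT/cpd. Every WT/cpd library was under every WT/WT library. The log2 fold change was -0.53 ± 0.12 (edgeR quasi-likelihood adjusted p = 0.0095), called in 29 of 29 alternatives.

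PYL4 and PYR1, the most abundant receptors per kilobase, were lower as well. PYL4 had 134.2, 156.9, 163.9, 132.5 and 153.2 CPM in WT/WT and 65.4, 111.1, 119.5, 94.5 and 111.6 CPM in WT/cpd, a log2 fold change of -0.56 ± 0.15 (edgeR quasi-likelihood adjusted p = 0.022). PYR1, the founding member of the family, had 120.5, 120.8, 124.0, 118.6 and 116.2 CPM in WT/WT and 55.02, 98.5, 90.9, 79.0 and 102.5 CPM in WT/cpd, a log2 fold change of -0.49 ± 0.13 (adjusted p = 0.026). For both genes the groups lay apart, and PYR1 varied by an SD of 2.87 CPM in WT/WT against 19.1 CPM in WT/cpd. Without WT/cpd replicate 1, the lowest library of its group for all 5 receptors and the shallowest, the log2 fold changes were -0.43 for PYL4 and -0.37 for PYR1 and neither was called (adjusted p = 0.061 and 0.056). PYL4 also lost its call without WT/WT replicate 3, and PYR1 without WT/WT replicate 1 or 3 or WT/cpd replicate 4.

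PYL5 had 36.4, 42.2, 51.7, 35.4 and 54.98 CPM in WT/WT and 25.5, 31.9, 34.4, 29.5 and 36.4 CPM in WT/cpd. These groups overlapped: the highest WT/cpd library was above the lowest WT/WT library. The log2 fold change was -0.48 ± 0.14 (edgeR quasi-likelihood adjusted p = 0.039), a call kept in 19 of 29 alternatives and lost without any one of WT/WT replicates 2, 3 and 5, WT/cpd replicates 1 to 4 or cpd/WT replicate 4. The whole count of lower receptors was 2 without WT/cpd replicate 1, 2 without WT/WT replicate 3 and 3 without WT/cpd replicate 4.

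The monomeric receptors of the PYL7 to PYL9 group were not called in this comparison. PYL8 was at 84.1 ± 5.23 CPM in WT/WT and 80.3 ± 7.73 CPM in WT/cpd, with a 95% interval of the log2 fold change from -0.27 to 0.14. PYL9 was at 26.5 ± 5.07 and 30.0 ± 5.15 CPM, with an interval from -0.10 to 0.47. PYL7 was at 11.8 ± 2.42 and 14.2 ± 2.24 CPM, with an interval from -0.15 to 0.69; it overlaps the genes AT4G03845 and AT4G01030 on the opposite strand, and since the strand setting of the counting is not given its counts are uncertain. PYL7 to PYL9 have 3 coding exons each. PYL7 and PYL9 share 81.4% of coding bases, and whether any reads were shared between them was not tested. PYL2 was close to the limit of detection, at 0.854 and 0.924 CPM.

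**Figure D2:**
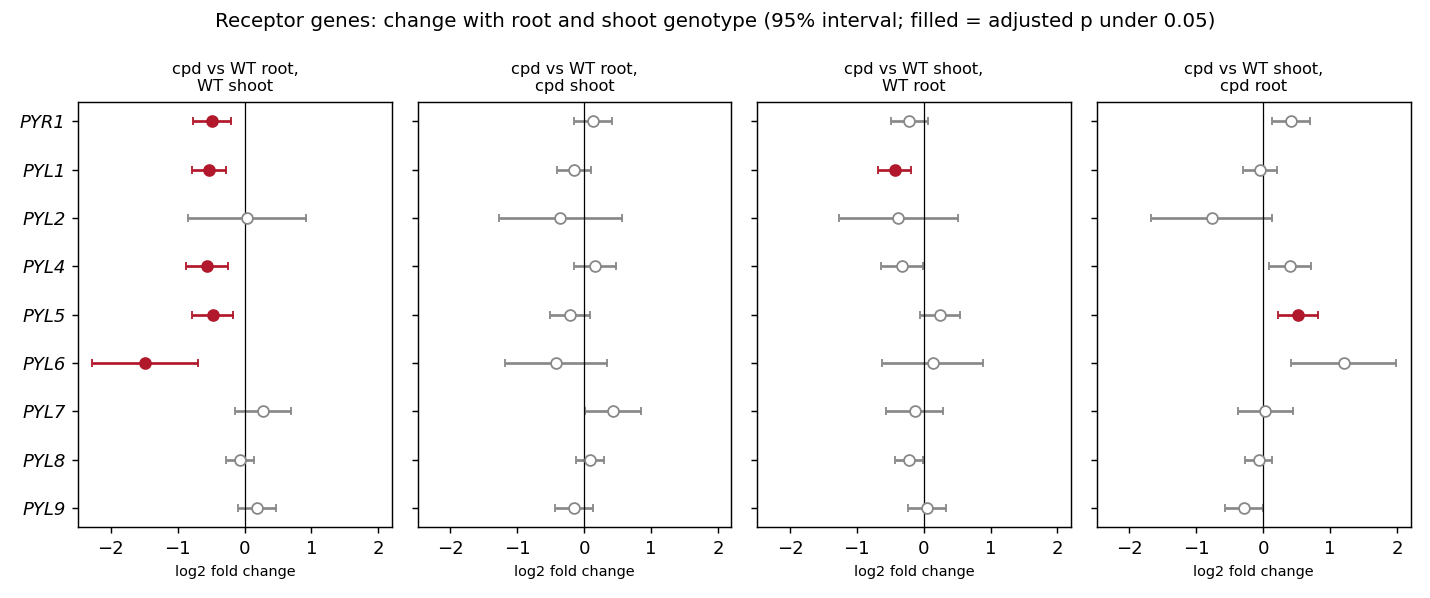
Log2 fold change of each receptor gene (points) with its unadjusted 95% interval (lines) in 4 comparisons, from edgeR's quasi-likelihood fit over 20 libraries; filled red points have an adjusted p under 0.05. In the first panel 5 receptors lie left of 0 as filled points, and in the second panel none is filled.

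Under a cpd shoot, 0 of 9 receptors were called between cpd and WT roots by edgeR's quasi-likelihood test, where 1.86% of all genes were called, 0.82% higher and 1.04% lower. At an unadjusted p under 0.05 the count was 1, PYL7, and the DESeq2 Wald test called 0, while limma voom with sample quality weights called 2, PYL5 and PYL9, both lower. PYL6 stood at 31.3, 32.7, 23.2, 18.2 and 16.8 CPM in cpd/WT and at 10.14, 27.3, 10.15, 28.8 and 15.1 CPM in cpd/cpd, so the groups overlapped widely. Its log2 fold change of -0.42 had a 95% interval from -1.18 to 0.34, which holds falls as well as small rises. The intervals of PYR1 (-0.15 to 0.41) and PYL4 (-0.15 to 0.48) lay mostly above 0, and that of PYL1 ran from -0.40 to 0.11.

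The difference between both root comparisons is the interaction, in which 2 of 9 receptors were called, PYL4 and PYR1, both positive. Of all genes 7.73% were called, 2.3% positive and 5.43% negative. The change with root genotype was more positive under a cpd shoot than under a WT shoot by 0.72 ± 0.21 on the log2 scale for PYL4 (edgeR quasi-likelihood adjusted p = 0.039) and by 0.62 ± 0.19 for PYR1 (adjusted p = 0.048). PYL4 had 109.6, 107.0, 122.2, 123.3 and 129.2 CPM in cpd/WT and 105.1, 122.3, 108.3, 177.4 and 149.1 CPM in cpd/cpd. PYR1 had 87.7, 130.4, 100.2, 97.4 and 102.4 CPM in cpd/WT and 99.3, 111.2, 99.3, 132.0 and 125.4 CPM in cpd/cpd. Both pairs of groups overlapped, and replicate 4 of cpd/cpd was the highest of its group for both genes. Both interaction calls were close to the threshold: PYL4 was called in 15 of 28 alternatives and PYR1 in 9 of 28, and both were lost without WT/cpd replicate 1 (0.59 and 0.49) and without cpd/cpd replicate 4 (0.59 and 0.56). The interaction of PYL6 was 1.06 ± 0.51 and was not called (adjusted p = 0.21), so its fall under a WT shoot is not shown to differ from its change under a cpd shoot. Of the shoot markers 4 of 8 were called negative in the interaction, with a median of -1.43 on the log2 scale against 0.03 over all genes, and of the root cap markers 1 of 4, BRN1 (-0.96), was called negative. Their part in the receptor result was not tested.

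On a WT root, a cpd shoot went with a lower level of 1 of 9 receptors, PYL1. Since 9.11% of all genes were called in this comparison, 6.21% higher and 2.9% lower, 1 of 9 is close to the background. PYL1 had 29.0, 37.6, 38.4, 36.2 and 32.9 CPM in cpd/WT, all under the lowest of the WT/WT libraries, which this comparison shares with the root comparison under a WT shoot. The log2 fold change was -0.43 ± 0.12 (edgeR quasi-likelihood adjusted p = 0.029), and the call was lost without any one of WT/WT replicates 1, 2 and 5 or cpd/WT replicates 1, 4 and 5. PYL4 lay apart between the groups as well, lower in every cpd/WT library, with a log2 fold change of -0.33 ± 0.15 that was not called (adjusted p = 0.17). Of the shoot markers, 7 of 8 were called higher in cpd/WT, where they summed to 1028 to 1669 CPM. Of the 4 root cap markers 1 was called higher, and of the 6 stele markers 1 was called higher and 1 lower. The part of these markers in the PYL1 result was not tested.

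On a cpd root, a cpd shoot went with a higher level of 1 of 9 receptors, PYL5, where 4.66% of all genes were called and 1.42% called higher. PYL5 had 34.8, 44.6, 39.1, 59.7 and 48.7 CPM in cpd/cpd, and only the lowest of these fell within the WT/cpd range. The log2 fold change was 0.52 ± 0.14 (edgeR quasi-likelihood adjusted p = 0.042). It was called in 13 of 29 alternatives, and the call was lost without any one of WT/WT replicate 2, WT/cpd replicates 1 to 4, cpd/WT replicates 1, 4 and 5 or cpd/cpd replicates 2 to 5; without WT/cpd replicate 1 the log2 fold change was 0.45 and without cpd/cpd replicate 4 it was 0.40. PYL6 differed more in size, by 1.20 ± 0.37, and PYR1 by 0.41 ± 0.13, but neither was called (adjusted p = 0.069 and 0.083), whereas the DESeq2 Wald test called both and PYL6 was also called without WT/cpd replicate 2.

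PYL1 alone was called, as lower, between whole cpd and whole WT grafts by edgeR's quasi-likelihood test over all 20 libraries. Of all genes 6.36% were called, 3.72% higher and 2.63% lower. PYL1 had 29.2, 35.6, 25.2, 36.6 and 30.7 CPM in cpd/cpd, below every WT/WT library, with a log2 fold change of -0.58 ± 0.12 (edgeR quasi-likelihood adjusted p = 0.0075) that was called in 29 of 29 alternatives. Limma voom with sample quality weights also called PYL4 (-0.35, adjusted p = 0.031), PYL6 (-0.83, adjusted p = 0.036) and PYL8 lower. PYL1 was highest in WT/WT (47.0 ± 5.37 CPM), and the other groups, cpd/WT at 34.8 ± 3.86, WT/cpd at 32.5 ± 5.10 and cpd/cpd at 31.5 ± 4.70, differed from one another by less than their spread and were not called against each other. These comparisons share their WT/WT libraries. Between the whole grafts 2 of 8 shoot markers and 1 of 4 root cap markers were called higher, and 1 of 4 endodermis and cortex markers lower. Of the 6 stele markers 1 was called higher and 1 lower. The part of these markers in the PYL1 result was not tested.

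The reciprocal grafts, WT/cpd against cpd/WT, differed in 2 of 9 receptors, PYL6 and PYL5, where 4.46% of all genes were called, 2.07% higher and 2.39% lower in WT/cpd. PYL5 was at 50.4, 50.8, 61.6, 47.8 and 50.8 CPM in cpd/WT, all above the highest WT/cpd library, and the log2 fold change of WT/cpd against cpd/WT was -0.73 ± 0.14 (edgeR quasi-likelihood adjusted p = 0.0060). PYL6 lay apart in the same way, with a log2 fold change of -1.62 ± 0.37 (adjusted p = 0.017). Both were called in 29 of 29 alternatives. Of the 4 endodermis and cortex markers 1 was called lower in WT/cpd than in cpd/WT, and its part in these results was not tested. In order of level, PYL6 ran from 24.4 ± 7.29 CPM in cpd/WT through 22.2 ± 6.41 in WT/WT and 18.3 ± 9.15 in cpd/cpd to 7.81 ± 4.20 in WT/cpd, and of the neighbouring steps none was called. PYL5 ran from 52.3 ± 5.34 in cpd/WT through 45.4 ± 9.58 in cpd/cpd and 44.1 ± 8.86 in WT/WT to 31.5 ± 4.25 in WT/cpd, and of its neighbouring steps the last was called. PYR1 and PYL4 shared the order WT/WT, cpd/cpd, cpd/WT, WT/cpd, with means of 120.0, 113.4, 103.6 and 85.2 CPM for PYR1 and 148.1, 132.4, 118.3 and 100.4 CPM for PYL4, and 0 of their neighbouring steps were called. PYL2, PYL7, PYL8 and PYL9 were called in 0 of the 7 comparisons by edgeR's quasi-likelihood test, and their group means ran from 0.513 to 0.924, 10.7 to 14.5, 72.1 to 84.1 and 24.6 to 30.0 CPM. At an unadjusted p under 0.05, PYL7 passed in the root comparison under a cpd shoot, PYL8 in the shoot comparison on a WT root and PYL9 in that on a cpd root. PYL8 was called lower between the whole grafts in 2 of 29 alternatives. Limma voom with sample quality weights called PYL9 lower with a cpd root under a cpd shoot and with a cpd shoot on a cpd root. It also called the interaction of PYL9 negative.

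Summed over the 9 genes, receptor transcripts amounted to 351.1 ± 28.4 CPM per kilobase in WT/WT and 266.2 ± 44.9 in WT/cpd. With a cpd shoot the sum was 308.6 ± 9.89 on a WT root and 318.5 ± 58.5 on a cpd root. The WT/cpd sums were 196.8, 301.1, 293.3, 244.8 and 295.0, all below the lowest WT/WT sum of 311.3. PYL4 and PYR1 made up 29.3% and 26.6% of the sum in WT/WT and 26.0% and 24.6% in WT/cpd. PYL6 held 3.89% and 1.74%, while PYL8 held 13.1% and 16.7% and PYL9 6.36% and 9.60%. These sums and shares are a description without a test.

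**Figure D3:**
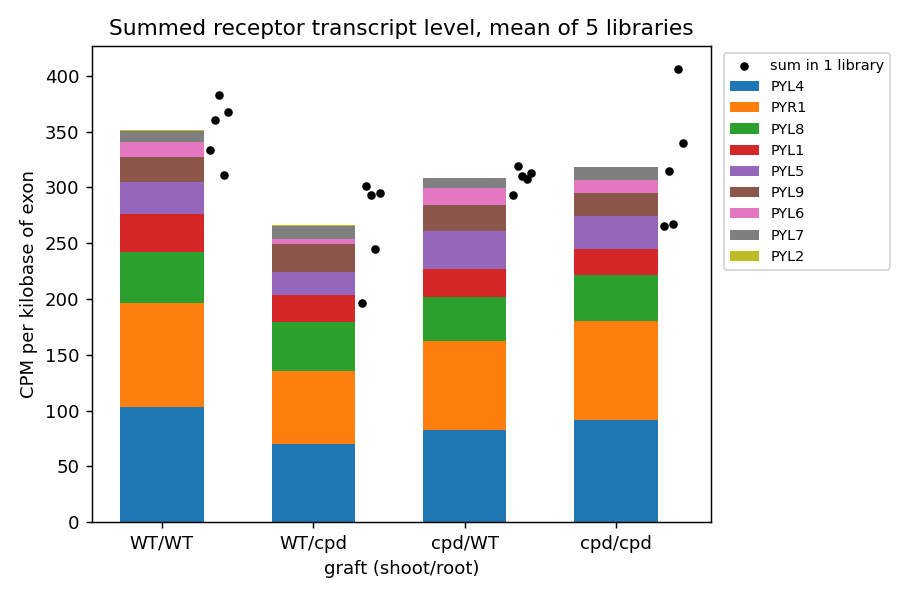
Receptor transcripts per graft group (shoot/root) as stacked mean levels of the 9 genes in CPM per kilobase of exon (n = 5), with the sum in each library as a black point. The WT/cpd sums lie between 196.8 and 301.1, and 1 of them, replicate 1, is the lowest of all 20.

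Among the other family members PYL12, which was tested, was at 0.809, 0.416, 0.560, 0.133 and 0.250 CPM in WT/WT and at 2.6, 1.94, 1.4, 1.1 and 1.12 CPM in cpd/WT. The groups lay apart at these low levels, from 3 to 19 counts in a WT/WT library and 27 to 75 in a cpd/WT library. Its log2 fold change with a cpd shoot on a WT root was 1.88 ± 0.51 (edgeR quasi-likelihood adjusted p = 0.028), called in 25 of 29 alternatives and lost without WT/WT replicate 4 or 5 or cpd/WT replicate 1. PYL11 and PYL12 are neighbours on chromosome 5 and share 85.4% of coding bases, and whether any reads were shared between them was not tested.

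Sequence upstream of the start of transcription is shown for the receptors the results turn on, PYL6 with the largest fall and PYL4 with an interaction, and for PYL7, which was not called in any comparison and holds most of the motifs searched. Each line gives the 300 bases before the annotated start of the gene in RefSeq's TAIR10.1, 5′ to 3′ on the strand of the gene, at chr2:16846195-16846494 (minus) for PYL6, chr2:16049618-16049917 (plus) for PYL4 and chr4:446678-446977 (plus) for PYL7, whose window lies over the gene AT4G01023. Capitals mark a match, on either strand, to ACGTG (the core of the ABA-responsive element), CACGTG (the G-box), CANNTG (the E-box) or the brassinosteroid response elements CGTGTG and CGTGCG.
PYL6: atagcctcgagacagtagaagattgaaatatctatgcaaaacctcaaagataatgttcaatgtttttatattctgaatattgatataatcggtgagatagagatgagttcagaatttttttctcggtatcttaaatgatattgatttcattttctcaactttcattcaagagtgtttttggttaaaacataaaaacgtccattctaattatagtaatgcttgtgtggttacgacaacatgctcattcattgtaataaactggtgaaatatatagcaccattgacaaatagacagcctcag
PYL4: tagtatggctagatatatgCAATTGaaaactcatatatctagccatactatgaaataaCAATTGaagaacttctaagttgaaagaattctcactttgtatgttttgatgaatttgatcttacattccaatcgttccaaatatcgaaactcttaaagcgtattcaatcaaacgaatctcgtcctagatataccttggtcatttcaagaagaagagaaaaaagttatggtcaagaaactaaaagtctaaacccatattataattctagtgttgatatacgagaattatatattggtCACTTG
PYL7: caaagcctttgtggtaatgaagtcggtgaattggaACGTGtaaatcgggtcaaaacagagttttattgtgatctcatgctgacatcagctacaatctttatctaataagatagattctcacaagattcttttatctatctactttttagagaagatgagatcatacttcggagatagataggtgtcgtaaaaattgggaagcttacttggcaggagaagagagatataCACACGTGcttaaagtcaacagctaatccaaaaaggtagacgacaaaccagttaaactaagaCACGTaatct

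Of the 8 receptor windows searched, ACGTG was in 1, that of PYL7, and in 25.6% of 27443 promoters of the same length. PYL7 held 4 matches, of which the pair at 70 and 69 bases forms the G-box CACGTG, itself also an E-box. CACGTG was in 7.1% of all promoters and CGTGTG in 6.1%, each in PYL7 alone among the 8, and CGTGCG was in 1.8% and in 0 of the 8. CANNTG was in 61.9% of all promoters and 5 of the 8 windows, with 3 matches in PYL4. None of these letters occurred in the windows of PYL6, PYL1 and PYL2. A match is a string of letters and not a bound site.

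Downstream of the receptors, the clade A phosphatases were higher in cpd roots under a WT shoot for 6 of the 8 tested and lower for 0, with a median log2 fold change of 0.64, where 6.19% of all genes were called higher. ABI1, a PP2C that receptors block, was at 80.9 ± 11.2 CPM in WT/WT and 135.9 ± 29.0 CPM in WT/cpd, with no overlap of the groups (log2 fold change 0.75 ± 0.14, edgeR quasi-likelihood adjusted p = 0.0030). HAI1, a phosphatase of the same clade whose transcript ABA induces, rose by 1.44 ± 0.34 (adjusted p = 0.012) and PP2CA by 0.54 ± 0.13 (adjusted p = 0.014). HAB2, ABI2 and HAI2 made up the rest, with HAI2 called in 17 and ABI2 in 11 of 29 alternatives. The count of 6 was 2 to 6 over all alternatives, and 3 without any one of WT/WT replicates 1 and 3 or WT/cpd replicate 1.

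Under a cpd shoot 0 of the 8 tested phosphatases were called between root genotypes by edgeR's quasi-likelihood test, where 1.86% of all genes were called. On a WT root 0 were called between shoots, where 9.11% of all genes were. With 8 genes, a count of 0 is close to both shares. The count was 1 in 1 of 29 alternatives for the root comparison and in 5 of 29 for the shoot comparison. On a cpd root, a cpd shoot went with lower levels of 4 of 8, with a median log2 fold change of -0.70, where 3.25% of all genes were called lower. PP2CA was at 109.0 ± 23.4 CPM in WT/cpd and 63.1 ± 4.11 CPM in cpd/cpd (log2 fold change -0.79 ± 0.13, edgeR quasi-likelihood adjusted p = 0.0037), and ABI1 was lower by -0.63 ± 0.13 (adjusted p = 0.012), with HAB2 and HAB1 the remaining pair. HAB1 was called in 16 of 29 alternatives, and the count of 4 was 1 when only the groups compared were fitted, 2 without WT/cpd replicate 1 or cpd/cpd replicate 2 and 6 without WT/cpd replicate 2, the range by single library being 2 to 6. In the interaction ABI1 (-1.02 ± 0.19, adjusted p = 0.0054) and PP2CA (-0.80 ± 0.19, adjusted p = 0.013) were called in 28 of 28 alternatives. WT/cpd roots had the highest mean of ABI1 and PP2CA, and the lowest mean of PYR1, PYL4, PYL5 and PYL6, of the 4 groups.

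**Figure D4:**
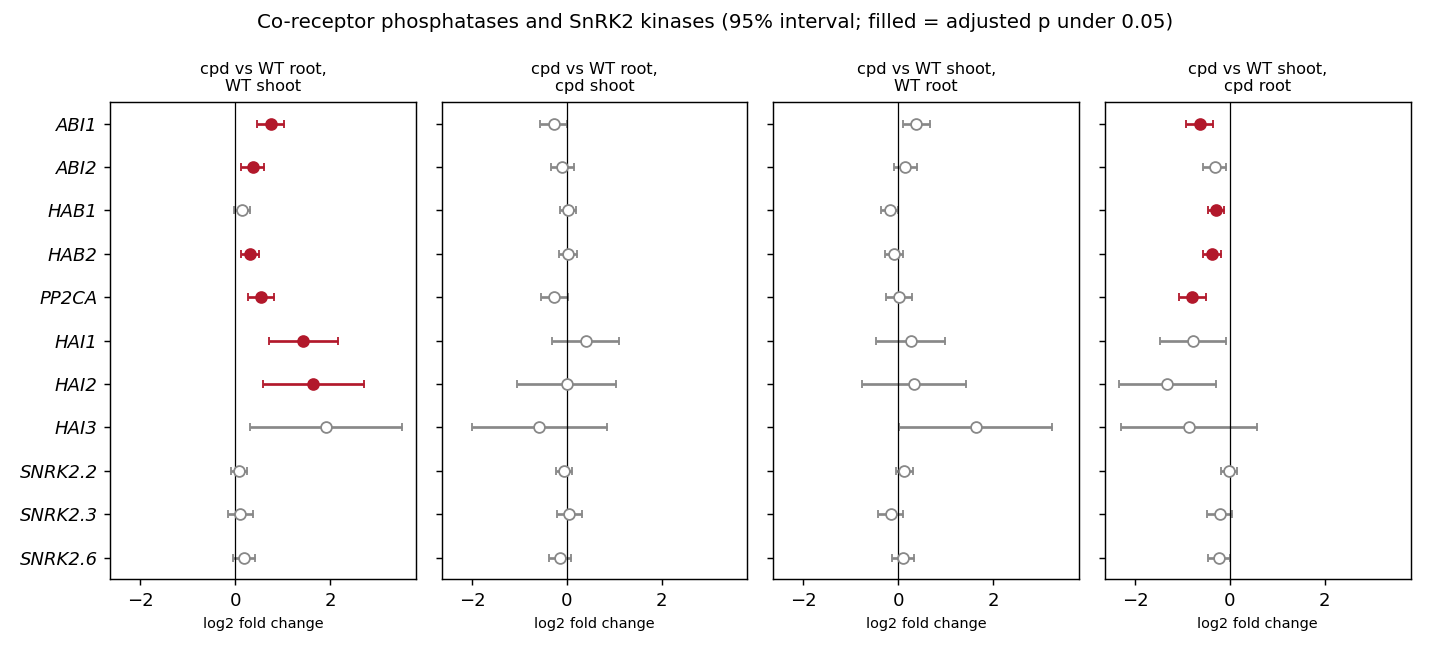
Log2 fold change (points) with unadjusted 95% interval (lines) of the tested clade A phosphatases and the SnRK2 kinases in the same 4 comparisons; filled red points have an adjusted p under 0.05. ABI1 is filled at 0.75 in the first panel and at -0.63 in the last, and none of the 3 kinases is filled in any panel.

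The 3 SnRK2 kinases were called in 0 of the 7 comparisons by edgeR's quasi-likelihood test, where 1.86% to 9.45% of all genes were called. Under the alternatives the count reached 2 for shoot genotype on a cpd root. It reached 1 for root genotype under a cpd shoot and 1 in the interaction, and stayed at 0 in the remaining comparisons. Under a WT shoot SNRK2.6, the guard cell kinase OST1, differed by 0.19 ± 0.11 between root genotypes (edgeR quasi-likelihood adjusted p = 0.31). Among the ABA transcription factors, of which 6 were tested, ABF2 was higher with a cpd root and a WT shoot (0.38 ± 0.10, edgeR quasi-likelihood adjusted p = 0.018). ABF2 was also higher with a cpd shoot on a WT root (0.33 ± 0.10), and its interaction was negative (-0.65 ± 0.14, adjusted p = 0.0083). Those calls of ABF2 for root and for shoot were kept in 27 and 22 of 29 alternatives. AREB3, of the same family, was lower with a cpd shoot on a WT root (-0.20 ± 0.06, adjusted p = 0.028; 20 of 29 alternatives). So 1 of 6 was higher with a cpd root under a WT shoot, against 6.19% of all genes, and with a cpd shoot on a WT root 1 of 6 was higher and 1 lower, against 6.21% and 2.9%. The pair of calls on a WT root fell to 0 without any one of WT/WT replicates 3 and 5 or cpd/WT replicates 1 and 4, and to 1 without WT/WT replicates 2 or 4 or cpd/WT replicates 2 or 3. ABF3 was lower with a cpd shoot on a cpd root (-0.45 ± 0.08, adjusted p = 0.0046). Each value is a log2 fold change.

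MYB44, MYB73 and MYB77, transcription factors that bind PYL8 and promote lateral root growth, were higher with a cpd root under a WT shoot in 3 of 3 cases, where 6.19% of all genes were called higher. The count was 1 without any one of WT/WT replicate 1 and WT/cpd replicates 3 and 4, and 2 to 3 without any one other library and under the other settings. MYB44 was called in 19, MYB73 in 26 and MYB77 in 29 of 29 alternatives. With a cpd shoot on a WT root 2 of 3 were called higher and 0 lower, where 6.21% of all genes were called higher. These were MYB44 and MYB77, called in 23 and 29 of 29 alternatives. In the interaction 3 of 3 were called negative, where 5.43% of all genes were. For MYB73 that call was kept in 16 of 28 alternatives, and for MYB44 and MYB77 in 28 of 28. MYB77 went from 10.3 ± 4.94 CPM in WT/WT to 58.6 ± 30.7 CPM in WT/cpd, with overlapping groups (log2 fold change 2.51 ± 0.53, edgeR quasi-likelihood adjusted p = 0.0074). It was at 47.9 ± 29.5 CPM in cpd/WT and at 16.8 ± 10.05 CPM in cpd/cpd, and its interaction was -4.01 ± 0.74 (adjusted p = 0.0053). PYL8 itself was called in 0 of the 7 comparisons by edgeR's quasi-likelihood test over all 20 libraries. Limma voom with sample quality weights called it lower between the whole grafts (log2 fold change -0.28, adjusted p = 0.0064). The edgeR test without the 4 least typical libraries did so too (-0.28, adjusted p = 0.015). Of the 4 tested genes of a list of receptor recruiters and regulators, 0 were called in any comparison by edgeR's test over all 20 libraries, where 1.86% to 9.45% of all genes were called. Under the alternatives that count reached 3 for shoot genotype on a cpd root. It reached 1 for root genotype under a cpd shoot and 1 between the whole grafts, and stayed at 0 in the remaining comparisons.

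Among genes of ABA supply, 3 of 8 tested synthesis genes and 2 of 5 inactivation genes were higher in the same roots and 0 were lower, where 6.19% of all genes were called higher. The synthesis count was 1 without WT/WT replicate 1 or 3 and reached 4 without cpd/cpd replicate 4. The inactivation count was 0 without WT/cpd replicate 1, 1 without any one of WT/WT replicates 1, 3 and 4 or WT/cpd replicates 3 and 4, and at most 3, without WT/cpd replicate 2 or 5 or cpd/cpd replicate 4. ABA1, the zeaxanthin epoxidase, went from 42.6 ± 5.72 CPM to 68.7 ± 13.95 CPM (log2 fold change 0.69 ± 0.14, edgeR quasi-likelihood adjusted p = 0.0063), and NCED3, the dioxygenase of drought-induced synthesis, from 3.53 ± 0.82 CPM to 11.4 ± 5.66 CPM (1.69 ± 0.45, adjusted p = 0.024). NCED9 was the third, called in 23 of 29 alternatives, against 29 for ABA1 and 25 for NCED3. CYP707A3, an ABA hydroxylase, differed by 1.65 ± 0.46 (adjusted p = 0.029) and UGT71B6, an ABA glucosyltransferase, by 1.21 ± 0.31 (adjusted p = 0.017), called in 20 and 27 of 29 alternatives. With a cpd shoot on a WT root, ABA1 (0.66 ± 0.14), NCED2 (1.26 ± 0.28) and CYP707A3 (1.72 ± 0.46) were called higher. These are 2 of 8 and 1 of 5, where 6.21% of all genes were called higher. Under a cpd shoot 0 of 8 and 0 of 5 were called between root genotypes, where 1.86% of all genes were. Those counts reached 3 and 2 under the alternatives. In the interaction 3 of 8 and 2 of 5 were called negative, where 5.43% of all genes were. Of these, ABA1, NCED9 and CYP707A3 were called in 28 of 28 alternatives, NCED2 in 22 and UGT71B6 in 17. Of the 4 transport genes 1, the exporter gene DTX50, was called higher with a cpd root under a WT shoot (1.93 ± 0.59, adjusted p = 0.044), and in 12 of 29 alternatives.

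Of 16 ABA response genes tested, 1 was higher with a cpd root under a WT shoot, the homeobox gene HB7 (log2 fold change 0.49 ± 0.10, edgeR quasi-likelihood adjusted p = 0.0074), a share close to the 6.19% of all genes called higher. The count was 2 without any one of WT/WT replicate 2 and WT/cpd replicates 2 and 4, and 1 to 5 under the other settings. The median log2 fold change over the 16 genes was 0.43, against -0.01 over all genes. RD29A, RD29B and RAB18, commonly used reporters of ABA, did not pass, with log2 fold changes of 0.95 ± 0.44, 0.94 ± 0.94 and 1.64 ± 0.92. With a cpd shoot on a WT root 3 of 16 were higher, KIN2, COR15A and COR47, where 6.21% of all genes were. They were called in 24, 16 and 22 of 29 alternatives, and the count was 0 without WT/WT replicate 1 or 3, 1 without any one of WT/WT replicates 4 and 5 or cpd/WT replicates 1, 2, 3 and 5, and 2 to 4 without any one other library. On a cpd root 1 of 16 was lower with a cpd shoot, HB12 (-0.98 ± 0.21, adjusted p = 0.014; 29 of 29 alternatives), where 3.25% of all genes were, and the count was 3 without WT/cpd replicate 2. Under a cpd shoot 0 were called between root genotypes, where 1.86% of all genes were, and the count was 0 to 3 under the alternatives. Between whole cpd and whole WT grafts 1 of 16 was higher, KIN2, where 3.72% of all genes were. Between the reciprocal grafts 1 of 16 was higher in WT/cpd, HB7, where 2.07% of all genes were. Both were called in 29 of 29 alternatives. In the interaction 0 of 16 were called, where 7.73% of all genes were, and the count was 0 to 3 under the alternatives.

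The genes whose levels ran most like those of a receptor were found by Pearson's r of log2 CPM over the 20 libraries, as a description in which libraries share their depth and group. PYR1 ran with PYL4 (r = 0.86), and PYL5 with PYL6 (r = 0.84). PYL4 was most like NLA, a ubiquitin ligase of phosphate transport (r = 0.92), PYL1 most like CIPK3, a calcium-linked kinase (r = 0.89), and PYL6 most like AT1G52200 (r = 0.93), FLS5 (r = 0.92) and RGF7, a root growth peptide gene (r = 0.90). PYL5 and CPD lie on chromosome 5 with 31 genes between them in TAIR10.1. Of the 23 of these that were tested, 1 was called in the root comparison under a WT shoot and 2 in that under a cpd shoot, with ENGase85A higher in both, and 3 were called for shoot genotype on a WT root, AT5G05670 lower and AT5G05600 and FAD8 higher. The shares of all genes called in these comparisons were 9.45%, 1.86% and 9.11%.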

How the data were processed

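The deposited values are unnormalized read counts per gene in 20 libraries. Per the labels' protocols, an RNeasy Plant Mini Kit gave the RNA and an NEBNext Ultra II Directional kit the libraries. Per the submitters' processing notes, reads were aligned with STAR to TAIR10; versions, counting tool, annotation release and strand setting: not given in the sources used here. Columns were matched to samples by the column names in the labels, and 0 columns were left unmatched.

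Counts were tested in R 4.3.3 with edgeR 4.0.16: filterByExpr by group, TMM scaling, 1 mean per group over all 20 libraries (16 residual degrees of freedom), robust quasi-likelihood F tests for 7 comparisons, Benjamini-Hochberg adjustment over all genes tested, and a call at an adjusted p under 0.05. The standard error was taken from the F statistic. Intervals of log2 fold changes use 16 degrees of freedom and are not adjusted. Levels are CPM of the TMM-scaled library. The procedure was tested on simulated counts. Within groups, 40 pairs of libraries differed by a chi-square per degree of freedom of 6.13 to 53.16, so none differed only by the noise of counting. Whether separate libraries were made from the same pool of roots cannot be told from these values.

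Names, gene models, exon lengths and promoters come from RefSeq's TAIR10.1, whose table holds 32548 of the 32833 codes. Coding identity is the percentage of the shorter sequence. No protein sequences were used here, and 1 receptor promoter is not reported here. Alternatives used DESeq2 1.42.0, limma 3.58.1, other filters and scaling, a replicate block, only the groups compared and omitted libraries. Named were all receptors, the 5 other family genes, CPD, up to 3 called members of each pathway list by adjusted p, up to 3 most alike genes per called receptor and called genes between PYL5 and CPD. RD29A, RD29B, RAB18, SNRK2.6 and the rest of a called list were named outside this rule, after their values were seen. The members and lists were chosen with earlier results of these data known.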

Additional observations from a re-analysis of the deposited data

Results flagged for a closer look

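The change with root genotype was called different between shoots for PYL4 and PYR1 by a test of the difference itself, close to the threshold. The call was kept in 15 of 28 alternatives for PYL4 and in 9 of 28 for PYR1. Both were lost without WT/cpd replicate 1 and without cpd/cpd replicate 4. The edgeR quasi-likelihood interaction was 0.72 on the log2 scale for PYL4 (adjusted p = 0.039) and 0.62 for PYR1 (adjusted p = 0.048). The log2 fold change with a cpd root was -0.56 for PYL4 and -0.49 for PYR1 under a WT shoot, and 0.16 and 0.13 under a cpd shoot, where neither was called.

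A single library stood away from the rest of its group for 2 genes. PYL5 in cpd/WT replicate 3 was at 61.6 CPM, with the nearest library at 50.8 CPM. PYL8 in WT/WT replicate 4 was at 75.0 CPM, with the nearest at 85.0 CPM. Of 36 sets of 5 libraries examined for such gaps 2 were found, and chance alone gives about 1 in 20.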

How the results depend on the processing

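Receptor counts changed with the setting. Fitting only the groups compared left 2 of 5 calls for root genotype under a WT shoot, gave 2 for shoot genotype on a WT root and 0 on a cpd root. Limma voom with quality weights called 2 for root genotype under a cpd shoot and 4 for the whole grafts. On a cpd root the DESeq2 Wald test called 3, and 0 were called with no filter and without the 4 least typical libraries (WT/WT replicate 4, WT/cpd replicate 2, cpd/WT replicate 2, cpd/cpd replicate 4). Without those 4, the whole grafts gave 2 and the interaction 1; the interaction also gave 0 with no filter and 1 with the stricter filter (CPM of 1 or more in 5 or more libraries). The cause was not tested. Leaving out each library in turn gave 2 to 5, 0 to 0, 0 to 1, 0 to 1, 1 to 1, 2 to 2 and 0 to 2 receptors in the order root under WT, root under cpd, shoot on WT, shoot on cpd, whole, reciprocal and interaction. The PYL4 interaction was not called without any one of WT/WT replicates 1, 2, 3 and 5, WT/cpd 1 and 4, cpd/WT 1, 3 and 4 or cpd/cpd 4 and 5; that of PYR1 was called only without WT/cpd 2 or 5 or cpd/WT 2. Of 1818 receptor values under an alternative, 1734 stayed on their side of the threshold, 72 lost a call, 12 gained one and 0 called values changed sign. Most of the 1818 were not called in the main fit, so the 72 are a larger share of the calls than of all values. Counts over all genes for root genotype under a cpd shoot ranged from 86 to 690 by library and 310 to 5598 by setting.

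Over 30 same-numbered pairs of libraries from different groups, the correlation of deviations from the group mean ran from -0.514 to 0.433, with 5 over 0.1. Pairs of unlike number were not set beside these, so whether the replicate number pairs samples is not settled. With the replicate number as a block, the receptor counts were 5, 0, 1, 1, 1, 2 and 2 in the same order, and all-gene counts for root genotype under a WT shoot went from 1972 to 1631. Depth limits PYL2 and PYL12, at under 100 counts in every library.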
